A study of Homo sapiens with 24 samples.

Results

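HCT15 is an established human colon cancer cell line from ATCC, described by the submitters as bearing a loss-of-function MLK4 mutation of its own. The study used 2 derivatives of it in which tetracycline induces a form of the kinase MLK4. The WT derivative was made for wild-type MLK4 and the Y330H derivative for MLK4 with the Y330H change, the study's control in this line. The arrays compared here are the 6 whose titles lack the Tet tag, 3 of WT and 3 of Y330H, out of 24 arrays in the series, and they were chosen by title alone, since their descriptions speak of induction like those of the tagged arrays. A second set of 6 arrays of the same derivatives, tagged Tet, received tetracycline for 24 hours, and each difference was looked up in that set. The other 12 arrays are of HT115, another colon cancer line with its own pair of derivatives. They enter only the estimate of the spread and the choice of the probe set that stands for each gene. No array of the unmodified line was used here. The sources used here do not state whether a derivative was a clone or a pool, or which promoter drives the construct. The labels do not call the repeats separate cultures, and the spread behind each p-value may therefore be technical. Since fewer cells of a kind and less RNA per cell give the same signal, they cannot be told apart in these data.

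Colon epithelium is renewed from crypt stem cells that depend on Wnt signalling, and their offspring become absorptive enterocytes or secretory cells such as goblet and enteroendocrine cells. CDX2 is the homeobox factor that sets intestinal identity, and villin, liver-intestine cadherin and tetraspanins are among the proteins of mature intestinal epithelium. Cancer lines keep parts of this program to different degrees, and cultures grown from 1 line can drift apart. MLK4, encoded by MAP3K21, is a mixed-lineage kinase of the family that signals towards JNK and JUN.

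MAP3K21 itself did not separate the derivatives. On the log2 scale of the deposited values, its signal was 10.90, 10.64 and 10.79 in the untagged WT arrays numbered 1, 2 and 3, and 10.43, 10.85 and 10.69 in Y330H. These overlap, and the difference of WT minus Y330H was 0.12 ± 0.13 (SE, n = 3 a group; adjusted p = 0.731). Tetracycline did not separate them either (difference of -0.11, adjusted p = 0.684), and whether its probe set reads the introduced sequence is not known. JUN was higher in WT by 0.57 ± 0.16 already without tetracycline (adjusted p = 0.0363), a call that was lost over only the 12 HCT15 arrays (adjusted p = 0.0582) and when any of 5 single arrays was left out: WT number 1, 2 or 3, or Y330H number 1 or 3 (0.051 to 0.181). CDKN1A (p21) and CDKN2B (p15) were not called (differences of -0.26 and 0.30, adjusted p = 0.762 and 0.274).

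The 2 derivatives differed at many genes. Of 19775 genes, 1181 passed an adjusted p under 0.05 in limma, which is 5.97% of those tested. Of these, 669 were higher in WT (3.38% of all genes) and 512 lower (2.59%). Most differences were modest, with a median size of 0.711 on the log2 scale, but 163 genes were at least 2-fold higher and 137 at least 2-fold lower, and 37 and 46 genes passed 4-fold. The 6 arrays did not overlap between the derivatives in 1135 of the 1181 genes, against 3702 of all genes (18.7%). The size of this count rests on the spread being taken from all 24 arrays: over only the 12 HCT15 arrays 382 genes were called, 375 of them among the 1181, and over only the 6 untagged arrays 170. Of the calls 56.6% were higher in WT, over the 12 HCT15 arrays 53.4%, and 46.3% with those arrays also centred on their medians. Leaving out WT number 1, WT number 2 or Y330H number 3 gave 673, 708 and 629 calls.

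The differences were largely there in the Tet arrays too. In those, 2620 genes were called between the derivatives (13.2%), 1496 higher (7.57%) and 1124 lower in WT (5.68%). The share called in both sets with the same direction was 4.55% of all genes, that is 900 genes, 499 higher and 401 lower in WT. They make up 76.2% of the untagged calls and 34.4% of the Tet calls, and 0 genes were called in opposite directions. Of the 1181 untagged calls, 1162 had the same sign in the Tet arrays, and the Tet arrays did not overlap in the same direction in 999. The Tet arrays are no independent test: arrays of the same derivative and number deviated together from their group means (correlation over genes of 0.31 to 0.767).

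**Figure D1:**
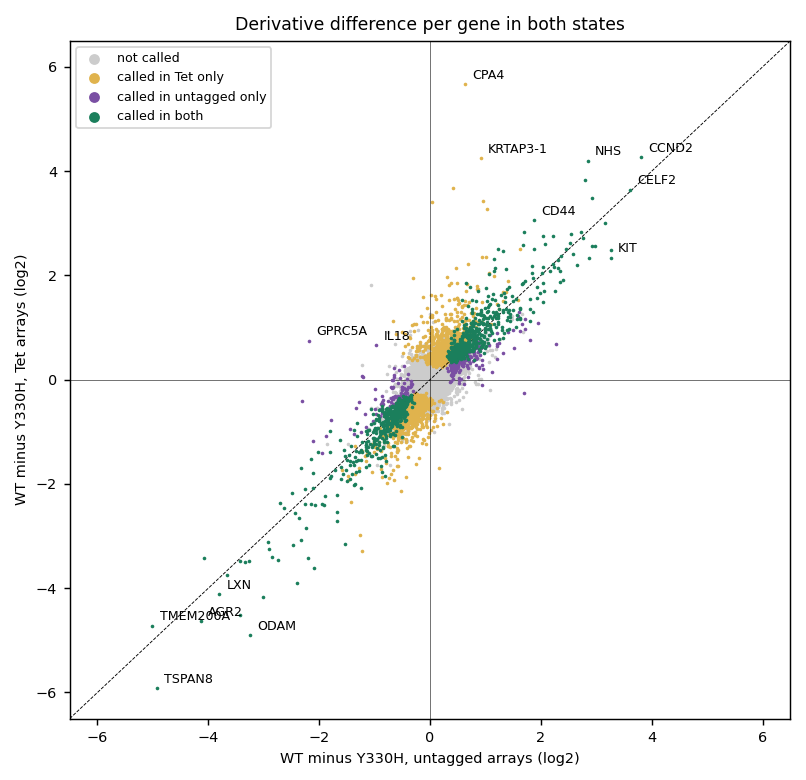
Each point is a gene, with the log2 difference of WT minus Y330H in the untagged arrays on the horizontal axis and in the Tet arrays on the vertical axis, coloured by where it was called. Genes called in both sets (900) lie along the dashed line of equal differences, while CPA4 and KRTAP3-1 differ far more in the Tet arrays and GPRC5A changes sign.

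WT arrays did not differ from Y330H to the same degree. Of the 1181 called genes, WT number 3 was the WT array nearest the Y330H mean in 738, against 236 and 207 for numbers 1 and 2, and the Tet array numbered 3 was nearest in 653. WT number 1 stood apart in another way: the signal of ACTB 3′ probes over 5′ probes, a sign of RNA degradation, was 1.175 on the log2 scale there and 0.931 in its Tet array, against 0.345 to 0.528 in the 10 other HCT15 arrays. Over all probe sets, arrays correlated at 0.986 to 0.994 within WT, 0.987 to 0.993 within Y330H and 0.979 to 0.990 between them. The part of either array in a result was not tested beyond leaving it out. Without both WT arrays numbered 1 there were 712 calls, and without the untagged and Tet arrays numbered 3 the count stayed within 1.5 times the full one.

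The largest difference of all was in TMEM200A, a transmembrane protein of little-known function, which was low in WT. Its untagged signal was 3.60, 3.82 and 5.02 in WT and 8.27, 9.50 and 9.70 in Y330H. The groups lay far apart, with a difference of -5.01 ± 0.43, or 32.2-fold lower in WT (adjusted p = 5.57e-07), and of -4.72 in the Tet arrays. Latexin (LXN), an inhibitor of carboxypeptidases, was 4.43, 4.56 and 5.36 in WT and 8.57, 8.28 and 8.90 in Y330H. No WT array came near those of Y330H, and LXN was 13.9-fold lower in WT (adjusted p = 5.57e-07). PAPSS2, which makes the sulfate donor for sulfation, was 6.51, 6.12 and 7.34 in WT and 9.97, 9.80 and 10.22 in Y330H, 10.1-fold lower in WT (adjusted p = 3.22e-07). Others in this group were LRRC34 (10.7-fold lower), the Norrin gene NDP, a ligand that activates Wnt signalling through Frizzled-4 (10.8-fold), the cell adhesion molecule NECTIN3 (9.66-fold), the secreted protein ODAM (9.47-fold), the kallikrein protease KLK11 (7.58-fold), the melanosome and secretory granule linker MYRIP (7.47-fold), and the secretory granule chaperone SCG5 (7.22-fold), with adjusted p from 3.22e-07 to 0.00159. The surface protein TM4SF1 was 5.22, 5.47 and 8.26 in WT and 10.29, 10.74 and 10.12 in Y330H, 16.8-fold lower in WT (adjusted p = 0.000425), and 4 of its 5 probe sets had that direction. C9orf152 was 8.08-fold lower (adjusted p = 0.0161), but 0.138 over the 12 HCT15 arrays and 0.0513 to 0.117 without WT number 1, WT number 2, Y330H number 1 or Y330H number 3.

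In the other direction, cyclin D2, CELF2 and the receptor KIT had the largest differences. CCND2, which drives entry into the cell cycle, was 11.78, 11.02 and 8.05 in WT and 6.95, 5.31 and 7.19 in Y330H. All WT arrays were above all Y330H arrays, though WT number 3 only narrowly, and the difference was 3.80 ± 0.71, or 13.9-fold (adjusted p = 0.00228 over 24 arrays and 0.0591 over the 12 HCT15 arrays). The RNA-binding protein CELF2, a splicing regulator best known in brain, heart and T cells, was 9.98, 9.75 and 7.79 in WT against 5.63, 6.10 and 4.94 (12.2-fold, adjusted p = 2.29e-05). KIT, the receptor tyrosine kinase for stem cell factor, was 8.71, 8.37 and 6.34 in WT against 4.83, 4.22 and 4.57, with no overlap (9.6-fold, adjusted p = 6.67e-05). The homeobox gene DLX1 was 10.64, 10.26 and 9.46 against 7.44, 6.91 and 6.58 (8.85-fold, adjusted p = 1.11e-06). The metallothionein MT1M, a metal-binding protein, was 9.89, 10.65 and 9.59 against 7.73, 6.89 and 6.71 (7.64-fold, adjusted p = 3.32e-06). WT number 3 was the lowest WT array for each of these genes. The non-coding LINC02901 (7.86-fold), the Wnt co-receptor relative LRP4 (7.27-fold), NHS, mutated in Nance-Horan syndrome (7.16-fold), the heparan sulfate sulfotransferase HS3ST3B1 (6.90-fold), LHFPL6 (6.71-fold), PGCKA1 (6.63-fold), PLXDC2 (6.30-fold), LIX1L (5.92-fold) and the inhibitory G protein subunit GNAI1 (5.85-fold) were also higher, with adjusted p from 1.02e-05 to 0.000159. RBM24, a regulator of muscle splicing, was 7.61-fold higher (adjusted p = 0.00307, and 0.058 over the 12 HCT15 arrays).

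Not overlapping in the untagged arrays and being called in the Tet arrays were part of how these 30 genes were chosen, so both are a description. Their Tet differences ran from -5.92 (TSPAN8) to 4.27 (CCND2), and 25 of the 30 were also called over only the 12 HCT15 arrays.

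**Figure D2:**
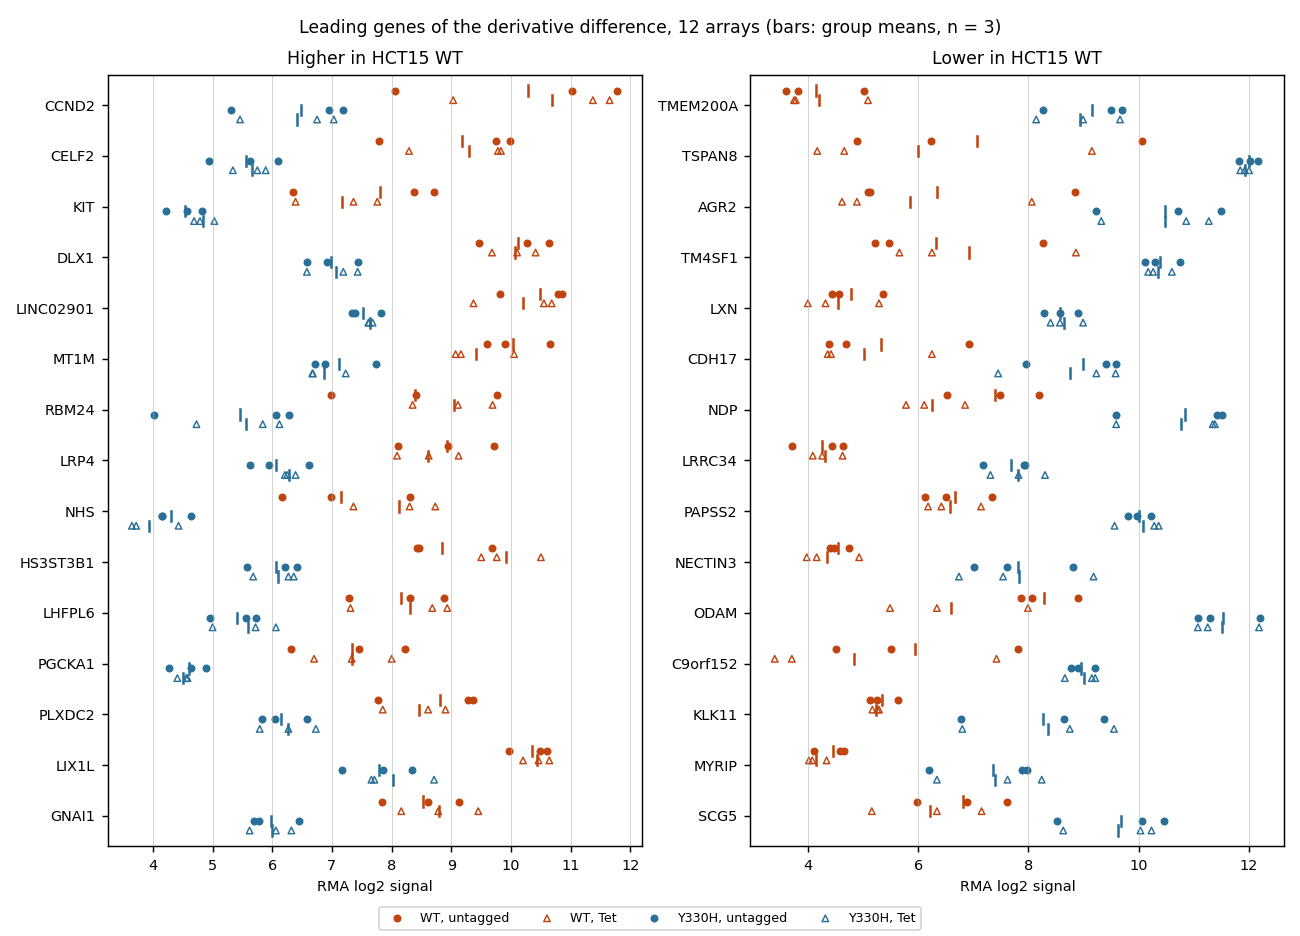
RMA log2 signal of the 15 leading genes in each direction in all 12 HCT15 arrays, with filled circles for untagged and open triangles for Tet arrays, and bars at the means of 3 arrays. The genes were chosen for untagged arrays that do not overlap, and 1 WT array lies between the other WT arrays and those of Y330H in TSPAN8, AGR2, TM4SF1 and CCND2.

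Several genes of mature intestinal epithelium were low in WT. Of 34 enterocyte markers measured, 5 were lower in WT and 1 higher, or 17.6% called against the 5.97% of all genes. All 6 were called in the Tet arrays with the same direction. This list and those below were chosen with earlier results of these data known. Among the genes known from these were TSPAN8, VIL1, AGR2, CCND2, CELF2, DLX1 and KIT. The share called in a list that holds any of them is therefore a description and not a test. The median difference over the 34 was 0.005 (0.029 over all genes), and the median level of the list was 6.13 on the log2 scale. The median level over all genes in the 12 HCT15 arrays was 7.36, and 5 of the 34 markers lay above it. TSPAN8, a tetraspanin of gut epithelium and many colon cancers, was 4.90, 6.24 and 10.06 in WT and 12.01, 11.81 and 12.16 in Y330H. The groups did not overlap, but WT number 3 stood much nearer Y330H than to its own group, and the difference of -4.93 ± 0.97 (30.4-fold lower in WT) had an adjusted p of 0.00353 over 24 arrays and 0.0751 over the 12 HCT15 arrays. CDH17, the liver-intestine cadherin, was 4.38, 4.69 and 6.92 in WT against 9.41, 7.96 and 9.59. It did not overlap either, and was 12.7-fold lower in WT (adjusted p = 0.000587). VIL1, villin, the actin bundler of microvilli, was 5.98, 6.40 and 9.0 in WT against 10.20, 8.47 and 9.68. Here WT number 3 lay among the Y330H arrays, and the difference of -2.32 ± 0.67 was called over 24 arrays (adjusted p = 0.0426) but not over the 12 of HCT15 (0.223), nor without WT number 1, WT number 2, Y330H number 1 or Y330H number 3 (0.135 to 0.219).

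CDX2 was 8.75, 8.99 and 9.15 in WT against 9.92, 9.30 and 10.08, without overlap (difference of -0.80 ± 0.19, adjusted p = 0.0134; 0.107 over the 12 HCT15 arrays). Its relative CDX1 did not move (difference of -0.02, adjusted p = 0.98). The lectin LGALS4, made by gut epithelium, was 2.12-fold lower in WT (adjusted p = 0.0141; 0.104 over the 12 HCT15 arrays). Carbonic anhydrase 2 (CA2), an enzyme of surface enterocytes, went the other way at 10.27, 9.81 and 9.18 in WT against 8.48, 8.87 and 7.84, which do not overlap (2.55-fold higher, adjusted p = 0.0074; 0.0674 over the 12 HCT15 arrays). The calls of CDX2 (0.0565 to 0.0945), LGALS4 (0.0501 to 0.0899) and CA2 (0.0593 to 0.0626) each ended when WT number 1 or Y330H number 3 was left out, those of CDX2 and LGALS4 also without Y330H number 1, and that of LGALS4 without WT number 2. KRT20, a keratin of mature enterocytes, was not called without tetracycline (difference of 0.20, adjusted p = 0.789). In the Tet arrays KRT20 was higher in WT by 1.63 (adjusted p = 0.000284).

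Of 27 goblet and secretory markers only AGR2 was called, or 3.7% against 5.97% of all genes. It encodes a disulfide isomerase that goblet cells need to make mucin. AGR2 was 5.13, 5.09 and 8.84 in WT and 11.49, 9.23 and 10.71 in Y330H. WT number 3 lay just below the lowest Y330H array, and AGR2 was 17.5-fold lower in WT (difference of -4.13 ± 0.83, adjusted p = 0.00412; 0.0794 over the 12 HCT15 arrays). The mucin MUC2 differed by 0.03 (adjusted p = 0.973). Among 19 enteroendocrine markers, SCG5 was lower in WT at 6.88, 5.98 and 7.61 against 10.45, 8.52 and 10.06. The endocrine transcription factor ISL1 was 1.5-fold higher (adjusted p = 0.0352), a call lost over the 12 HCT15 arrays (0.137) and without any single untagged array other than Y330H number 2 (0.0517 to 0.154), and not made in the Tet arrays (0.167). None of 15 Paneth and tuft markers was called by limma; the nearest, DEFA6 and TRPM5, had adjusted p of 0.392 and 0.465. In the fetal and squamous epithelial list (22 genes) 3 were lower in WT, or 13.6% against 2.59% lower among all genes. They were the lipocalin LCN2 at 8.50, 8.38 and 8.27 against 10.60, 9.78 and 10.61 (3.86-fold, adjusted p = 0.000381), the orphan receptor GPRC5A (4.56-fold, adjusted p = 0.000437) and keratin 80 (KRT80, 2.31-fold, adjusted p = 0.00986). The KRT80 call was lost over the 12 HCT15 arrays (0.104) and without WT number 1 or Y330H number 1 (0.0578 to 0.0822).

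**Figure D3:**
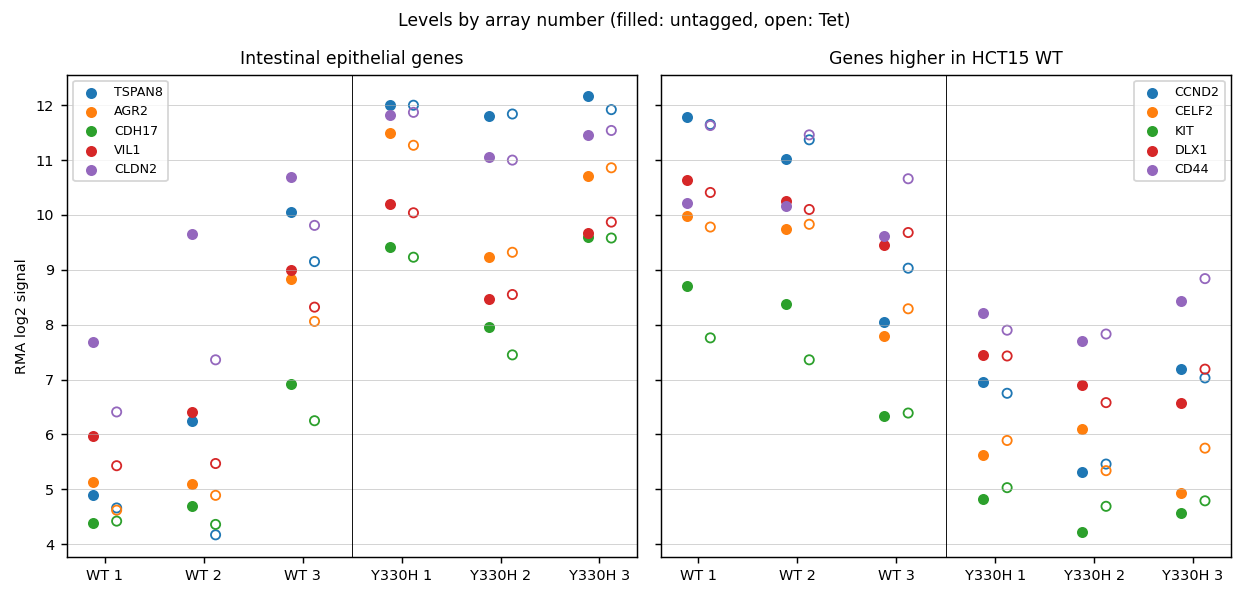
RMA log2 signal by array number for 5 intestinal epithelial genes and 5 genes higher in WT, with filled points for untagged arrays and open points for Tet arrays. WT number 3 lies nearer to Y330H than WT numbers 1 and 2 in every gene shown, in both untagged and Tet arrays.

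The upstream sequence of the called intestinal genes is shown because CDX2, which is known to bind intestinal promoters, was among the enterocyte and goblet markers called lower in WT. The sequences are RefSeq promoters of build GRCh38.p14, 250 bases before to 50 after the start, written 5′ to 3′ on the gene's strand. Capitals mark TTTAT and, on the other strand, ATAAA, the core letters of sites that CDX2 is known to bind. ATAAA is also part of the TATA-box letters TATAAA.
TSPAN8 (chr12:71157950-71158249, minus strand): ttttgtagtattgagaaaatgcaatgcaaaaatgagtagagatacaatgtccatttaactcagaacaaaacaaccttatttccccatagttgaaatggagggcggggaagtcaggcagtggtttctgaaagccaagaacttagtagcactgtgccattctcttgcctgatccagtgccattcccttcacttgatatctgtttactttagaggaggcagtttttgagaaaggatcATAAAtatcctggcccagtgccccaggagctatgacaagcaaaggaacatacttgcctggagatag
AGR2 (chr7:16804950-16805249, minus strand): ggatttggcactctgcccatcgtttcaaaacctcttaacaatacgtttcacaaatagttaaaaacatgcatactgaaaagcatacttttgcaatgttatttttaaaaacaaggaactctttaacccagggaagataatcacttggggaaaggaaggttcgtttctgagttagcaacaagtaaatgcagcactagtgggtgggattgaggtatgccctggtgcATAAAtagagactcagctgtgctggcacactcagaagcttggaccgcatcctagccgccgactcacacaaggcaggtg
CDX2 (chr13:27969266-27969565, minus strand): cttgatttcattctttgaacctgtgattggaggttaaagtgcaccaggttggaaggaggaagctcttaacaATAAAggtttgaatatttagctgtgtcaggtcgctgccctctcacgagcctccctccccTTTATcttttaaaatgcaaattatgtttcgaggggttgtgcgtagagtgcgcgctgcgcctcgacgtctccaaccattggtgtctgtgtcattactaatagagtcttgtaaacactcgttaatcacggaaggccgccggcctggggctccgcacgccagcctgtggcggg
These letters were in 3 of the 4 enterocyte and goblet markers lower in WT that had a promoter in the table (75.0%), and in 27.7% of 15382 promoters of tested genes. CDX2's own promoter was among these 3, and VIL1 and CDH17, also called lower in WT, had no promoter there. LGALS4 was the one of the 4 without them, and the promoter of the enteroendocrine marker SCG5, also lower in WT, did not hold them either. Among all genes called lower in WT the share was 24.5%. A match is only a match of letters in this window.

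The promoters were also described by their content of CG dinucleotides, with no test. At least 10 CG stood in 494 of 543 promoters of genes higher in WT (91.0%), in 323 of 404 of genes lower in WT (80.0%), and in 73.5% of all. For the leading genes this was 10 of 11 (90.9%) and 5 of 12 (41.7%). Single genes crossed this order: MYRIP and NECTIN3, lower in WT, had 46 and 36 CG, and CELF2, higher in WT, had 7. DLX1 is shown with its 23 CG in capitals, and stands against 6 for AGR2.
DLX1 (chr2:172085257-172085556, plus strand): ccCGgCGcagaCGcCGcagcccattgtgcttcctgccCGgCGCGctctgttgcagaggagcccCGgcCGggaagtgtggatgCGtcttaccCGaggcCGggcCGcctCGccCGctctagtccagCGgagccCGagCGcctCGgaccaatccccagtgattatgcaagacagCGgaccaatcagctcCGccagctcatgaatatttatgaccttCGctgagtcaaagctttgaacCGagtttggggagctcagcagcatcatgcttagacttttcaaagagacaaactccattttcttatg

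Stem cell and Wnt target genes moved in both directions. Of 25 measured, 3 were higher in WT (CCND2, CD44 and MYC) and 2 lower (APCDD1 and LEF1), which is 20% of the list against 5.97% of all genes, and all 5 were called in the same direction in the Tet arrays. The median over the list was -0.104. CD44, the hyaluronan receptor and stem cell marker, was 10.21, 10.16 and 9.62 in WT against 8.22, 7.70 and 8.43. These groups lie well apart (3.68-fold, adjusted p = 7.45e-05), and 12 of 13 probe sets shared the direction. MYC, the growth-promoting transcription factor, was 11.80, 11.87 and 11.85 in WT against 11.55, 11.47 and 11.20, a small difference of 0.43 ± 0.11 (adjusted p = 0.0192; 0.147 over the 12 HCT15 arrays). APCDD1, an inhibitor of Wnt signalling that is itself a Wnt target, was 7.32, 8.39 and 6.65 in WT against 9.91, 8.44 and 11.21. Its WT number 2 and Y330H number 2 nearly met, and it was 5.28-fold lower in WT (adjusted p = 0.0167; 0.115 over the 12 HCT15 arrays). LEF1, a DNA-binding partner of beta-catenin, was 1.51-fold lower (adjusted p = 0.00965; 0.102 over the 12 HCT15 arrays). Single arrays ended 3 of these calls: MYC without WT number 2 or Y330H number 3 (0.0682 to 0.128), APCDD1 without WT number 1, WT number 3 or Y330H number 3 (0.063 to 0.122), and LEF1 without Y330H number 3 (0.0804). The stem cell factor ASCL2 had a difference of -1.27 that was not called (adjusted p = 0.242). In the Tet arrays its difference was -2.98 and called (adjusted p = 0.00176). There 9 of the 25 genes were lower in WT and 4 higher, against 5.68% and 7.57% of all genes.

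Homeobox and patterning factors were called in both directions. Of 47 measured, 7 were higher in WT and 4 lower, or 23.4% against 5.97% of all genes, and 8 of the 11 were called in both sets. The higher ones were DLX1, its chromosomal neighbour DLX2, HOXD10, HOXD13, MEIS2, HOXC8 and DLX6, and the lower ones HOXB4, HOXB5, HOXB6 and PBX3. DLX2 was 10.26, 9.51 and 9.33 in WT against 7.75, 8.25 and 7.34 (3.79-fold, adjusted p = 2.72e-05). HOXD13, a gene of the most posterior body, was 8.74, 8.29 and 7.84 against 6.89, 6.44 and 6.53 (3.19-fold, adjusted p = 4.7e-05). Neither of these overlapped, and both kept their call over the 12 HCT15 arrays (0.0035 and 0.00838). HOXD10 was 3.69-fold higher (adjusted p = 0.0166; 0.124 over the 12 HCT15 arrays). HOXC8 (0.0547), MEIS2 (0.0538), HOXB4 (0.133) and PBX3 (0.0939) were not called over the 12 HCT15 arrays either, and in the Tet arrays DLX6 (0.0799), HOXB4 (0.112) and PBX3 (0.852) were not. HOXB5 was 10.43, 10.36 and 10.29 in WT against 11.28, 10.67 and 11.25, and HOXB6 10.44, 10.40 and 10.14 against 11.28, 10.70 and 11.17. These adjacent genes of the HOXB cluster were lower by 0.70 ± 0.14 and 0.72 ± 0.16 (adjusted p = 0.00381 and 0.00843; 0.0596 and 0.0711 over the 12 HCT15 arrays). The calls of HOXD10, MEIS2, HOXC8, DLX6, HOXB4 and PBX3 ended without Y330H number 3, with adjusted p of 0.052 (DLX6) to 0.205 (PBX3) over all arrays that ended them; these were also WT number 1 (HOXD10, MEIS2, HOXB4 and PBX3), WT number 2 (HOXB4 and PBX3), WT number 3 and Y330H number 1 (HOXB4), and Y330H number 2 (HOXD10, DLX6 and PBX3).

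Calls among epithelial junction genes (3.23%) and mesenchymal genes (3.7%) were no more frequent than the 5.97% of all genes. In the matrix and adhesion list 5 genes were lower in WT. Of 31 junction genes only claudin 2 (CLDN2), which forms cation pores in tight junctions, was called: 7.69, 9.66 and 10.70 in WT against 11.83, 11.05 and 11.46. The groups did not overlap, but its difference of -2.09 ± 0.62 (adjusted p = 0.0474) was lost over the 12 HCT15 arrays (0.232) and without any of 7 single arrays: WT number 1 or 2, any Y330H array, WT Tet number 2 or Y330H Tet number 3 (0.0522 to 0.28). E-cadherin (CDH1) and EPCAM, which hold epithelial cells together, differed by -0.10 and 0.03 (adjusted p = 0.814 and 0.93). Of 27 mesenchymal genes only the E-cadherin repressor SNAI1 was called (1.53-fold higher, adjusted p = 0.0165; 0.0963 over the 12 HCT15 arrays, and 0.0578 to 0.0699 without WT number 1 or 2 or Y330H number 1 or 2). Vimentin (VIM) differed by -0.14 (adjusted p = 0.727).

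Among 33 integrin, laminin and matrix genes 0 were higher in WT and 5 lower (15.2%, against 2.59% lower among all genes). The median was -0.125, and 15 of the 17 in the brighter 50% of genes had a negative difference. ITGB4, the integrin of hemidesmosomes, was 9.21, 9.73 and 9.64 in WT against 10.23, 10.14 and 10.56, without overlap (1.71-fold lower, adjusted p = 0.00185), and 4 of its 5 probe sets had that direction. LAMB3, a laminin chain of epithelial basement membranes, was 6.86, 7.2 and 8.93 against 9.68, 9.26 and 9.66 (3.67-fold lower, adjusted p = 0.00514; 0.0765 over the 12 HCT15 arrays). The matrix protein TNC (3.85-fold, adjusted p = 0.0181) and the proteoglycans AGRN (1.5-fold, 0.0316) and HSPG2 (1.45-fold, 0.0191) were lower as well. These 3 were not called over the 12 HCT15 arrays (0.143, 0.187 and 0.076) nor without WT number 1 or Y330H number 3, TNC also not without WT number 2 and AGRN not without Y330H number 1 (0.0631 to 0.197), and 1 of the 3 probe sets of TNC had its direction. In the Tet arrays LAMB3 and TNC were not called (adjusted p = 0.0714 and 0.0578).

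Calls in the signalling lists went in both directions. Of 46 receptor tyrosine kinases and ligands 4 were higher in WT (KIT, FGF9, PDGFA and EPHA1) and 2 lower (BTC and MET), 13% against 5.97% of all genes. The growth factor FGF9 was 7.82, 7.55 and 7.14 in WT against 6.44, 6.44 and 6.27 (2.18-fold, adjusted p = 0.00567). Betacellulin (BTC), a ligand of the EGF receptor, was 4.51, 4.59 and 5.11 against 6.19, 6.26 and 5.72 (2.5-fold lower, adjusted p = 0.000551). Neither gene overlapped between the derivatives. The receptor for hepatocyte growth factor, MET, was 10.22, 9.79 and 9.86 against 10.30, 10.87 and 10.68 (1.58-fold lower, adjusted p = 0.00774; 0.0857 over the 12 HCT15 arrays and 0.0514 without WT number 2), and the Tet difference was 0 (adjusted p = 0.998). PDGFA (adjusted p = 0.0474) and EPHA1 (0.0333) were not called over the 12 HCT15 arrays (0.173 and 0.0712) nor without any 1 of 9 and 5 arrays, WT numbers 1 and 2 and all of untagged Y330H in both cases, and for PDGFA also WT Tet number 2 and all of Y330H Tet (0.0504 to 0.238). KIT ligand (KITLG) was not called (difference of 0.59, adjusted p = 0.23).

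In 40 Notch, BMP and Hedgehog genes 2 were higher and 2 lower, against 3.38% and 2.59% of all genes, a share of calls near that of the background. INHBB, the beta B subunit of activins and inhibins, was 7.72, 7.41 and 6.68 in WT against 5.42, 5.47 and 5.48, a clear gap (3.51-fold, adjusted p = 0.000282). The Notch target HEY1 was 8.82, 8.48 and 7.60 against 6.77, 7.06 and 6.62 (2.79-fold, adjusted p = 0.00522; 0.0649 over the 12 HCT15 arrays). The BMP target ID1 was 2.59-fold lower (adjusted p = 0.0474; 0.211 over the 12 HCT15 arrays) and the TGF-beta receptor TGFBR2 1.48-fold lower (0.0161; 0.129), and these ended without WT number 2, Y330H number 1 or Y330H number 3, ID1 also without WT number 1, WT Tet number 2 or Y330H Tet number 3, and TGFBR2 without WT number 3 (0.052 to 0.249). Of 29 mixed-lineage kinase and JNK pathway genes JUN and FOSL2 were higher in WT and 0 lower, and this 6.90% is near the 5.97% of all genes. FOSL2, an AP-1 subunit, was 10.76, 10.46 and 10.06 against 9.49, 9.48 and 9.78, all WT above all Y330H (1.79-fold, adjusted p = 0.00518; 0.0817 over the 12 HCT15 arrays). These 2 were called in the Tet arrays as well, where 8 of the list were higher, against 7.57% of all genes.

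Of 38 chemokine, cytokine and receptor genes 2 were higher in WT and 4 lower, 15.8% against 5.97% of all genes. TNFSF15, a TNF family cytokine, was 4.09, 5.07 and 6.44 in WT against 8.99, 7.03 and 7.67 (6.48-fold lower, adjusted p = 0.00254; 0.0591 over the 12 HCT15 arrays). IL1RN, the antagonist of the interleukin-1 receptor, was 4.56, 4.55 and 4.81 against 5.94, 6.00 and 6.30 (2.72-fold lower, adjusted p = 0.00209), with no overlap and little spread. The mucosal chemokine CCL28 was 1.61-fold lower (adjusted p = 0.00144) and the receptor IL17RB 1.87-fold higher (0.000286). IL18, a cytokine of gut epithelium, was 8.12, 7.39 and 7.48 against 9.06, 8.61 and 8.23 (1.96-fold lower, adjusted p = 0.012; 0.0872 over the 12 HCT15 arrays, and 0.0695 to 0.0722 without WT number 2 or Y330H number 1). CCR6 was higher (adjusted p = 0.0297; 0.0705 over the 12 HCT15 arrays, and 0.063 to 0.182 without WT number 1 or 2 or Y330H number 1 or 3) and differed by 0.05 in the Tet arrays. Of 46 interferon-stimulated and antigen presentation genes limma called 0, the nearest being MX1 (adjusted p = 0.0502) and IFITM1 (0.0868).

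Several genes of detoxification were low in WT. Of 43 xenobiotic and glutathione genes 5 were lower in WT and 1 higher (14% called, against 5.97% of all genes). The aldehyde dehydrogenase ALDH3A1 was 8.29, 7.95 and 8.50 in WT against 9.10, 10.53 and 10.15 (3.21-fold lower, adjusted p = 0.00941; 0.0674 over the 12 HCT15 arrays). ALDH1A3, which makes retinoic acid, was 9.68, 8.89 and 8.31 against 7.79, 7.66 and 7.31 (2.59-fold higher, adjusted p = 0.00984; 0.0751), on 1 of 2 probe sets. The drug efflux pumps ABCC3 (2.36-fold, adjusted p = 0.0471) and ABCB1 (1.83-fold, 0.021), UGT8 (1.83-fold, 0.00322) and AKR1B10 (1.60-fold, 0.0389) were lower, with 0.198, 0.152, 0.0584 and 0.187 over the 12 HCT15 arrays, and ABCC3 was not called in the Tet arrays (0.0758). Left-out arrays ended the calls of ALDH3A1 (WT number 2 or Y330H number 3), ALDH1A3 (WT number 1 or Y330H number 3), ABCC3 (WT number 2 or 3, WT Tet number 3, Y330H number 1 or 3), ABCB1 (WT number 1 or 2, Y330H number 3) and AKR1B10 (WT number 2 or 3, Y330H number 1), with adjusted p of 0.0508 to 0.25.

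Of 30 glycolysis and hypoxia genes 3 were higher and 1 lower in WT, 13.3% called against 5.97% of all genes. The list median was 0.227, against 0.029 over all genes. The neuronal enolase ENO2 was 11.49, 11.11 and 10.92 against 10.38, 10.24 and 10.32 (1.82-fold, adjusted p = 0.00104). CA12, a hypoxia-induced carbonic anhydrase (1.66-fold, adjusted p = 0.0116; 0.116 over the 12 HCT15 arrays), and PFKFB3, an activator of glycolysis (1.37-fold, 0.0204; 0.147), were higher, and ANKRD37 was 1.79-fold lower (0.00433) on 1 of 2 probe sets. Without WT number 1 or 2 both CA12 and PFKFB3 lost the call, as did CA12 without Y330H number 3 and PFKFB3 without Y330H number 1 (0.0637 to 0.122). MT1M was the only one of 9 metallothioneins called, and the other 8 had differences of 0.08 (MT2A) to 0.38 (MT1F). Of 26 cholesterol and fatty acid genes the desaturase FADS2 was 1.94-fold higher (adjusted p = 0.000147), on 1 of 2 probe sets and without a call in the Tet arrays (0.349). The sterol carrier STARD4 was 1.52-fold lower (0.0247; 0.0894 over the 12 HCT15 arrays, and 0.0579 to 0.101 without WT number 1 or 2 or Y330H number 1 or 3).

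In the proliferation and stress lists 0% to 6.9% of the members were called, near or below the 5.97% of all genes. Of 29 G1/S and replication genes MCM10 and POLA1 were higher by 0.50 and 0.57 (adjusted p = 0.0469 and 0.0377), neither called over the 12 HCT15 arrays (0.161 and 0.184). MCM10 lost its call without any of 9 arrays, all but 3 of the 12 (Y330H number 2, Y330H Tet numbers 1 and 2), and POLA1 without WT number 1, WT number 2 or Y330H number 1 (0.0505 to 0.24). POLA1 was not called in the Tet arrays (0.293). By limma, 0 of 30 mitosis genes and 0 of 32 amino acid and unfolded protein stress genes were called, and of 22 p53 targets only SESN1 (1.45-fold higher, adjusted p = 0.0251, with a Tet difference of -0.06 and adjusted p = 0.845; 0.146 over the 12 HCT15 arrays, and 0.0617 to 0.149 without WT number 1, WT number 2 or Y330H number 1). The nearest mitosis genes, KIF2C and KIF11, had adjusted p of 0.132 and 0.272, and the nearest stress genes, SEL1L and SLC7A5, 0.0972 and 0.175. Of 25 ribosome biogenesis genes WDR74 was 1.56-fold higher (adjusted p = 0.00366, and 0.057 over the 12 HCT15 arrays), on 2 of 3 probe sets. In the Tet arrays 12 of the list were higher, against 7.57% of all genes. Of 27 cancer-testis antigens TDRD1 was 1.91-fold lower (adjusted p = 0.00567; 0.0857 over the 12 HCT15 arrays).

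Markers of other cell types were mostly at the dim end in both derivatives. Of 10 fibroblast markers limma called 0, and the nearest, COL6A3 and THY1, had adjusted p of 0.269 and 0.424. The mean level of that list was 5.08 to 5.33 in WT arrays and 5.04 to 5.20 in Y330H. Of 9 leukocyte markers CD14 was called, 1.59-fold higher in WT (adjusted p = 0.0324; 0.079 over the 12 HCT15 arrays, and 0.0501 to 0.139 without any untagged array but Y330H number 1). Of 9 endothelial markers the adhesion molecule ESAM was called, at 9.45, 9.43 and 8.78 in WT against 8.22, 8.16 and 8.25 (2.01-fold, adjusted p = 0.00278), and of 12 neural and muscle markers only CELF2. The list means were 5.49 to 5.81 in WT arrays and 5.58 to 5.62 in Y330H for leukocytes, 5.51 to 5.75 in WT arrays and 5.48 to 5.67 in Y330H for endothelium and 6.77 to 6.92 in WT arrays and 6.46 to 6.49 in Y330H for neural and muscle genes, and defining markers cannot be read as 0 on this scale, which has no true zero.

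The called genes were also set out by their position in the genome. In 10 Mb windows with at least 20 genes, the median difference was between -0.039 and 0.096 for the 5th and 95th percentile of 288 windows. The 4 neighbouring windows of distal chromosome 3 that run from CLSTN2-AS1 to PEX5L-AS2 ranked 1, 2, 4 and 5 from the lowest, and were picked out after these values were seen. Other windows held calls as well, among them the first window of chromosome X (6 of 36 genes lower in WT) and the window of chromosome 4 from FSTL5 to MFAP3L (5 of 30 higher). The 4 windows of distal chromosome 3 hold 177 genes, 41 lower in WT and 4 higher, so that 23.2% were lower against 2.55% of all genes with a chromosome. Of the 41, 35 were called lower in the Tet arrays too. The median difference was -0.160, and -0.089 without WT number 1. Among the 72 genes there in the brighter 50%, 65 had a negative difference (90.3%, against 46.2% of all brighter genes), 33 were called lower (45.8% against 3.72%), and the median was -0.477, with -0.463 in the Tet arrays. On the rest of chromosome 3, 473 brighter genes had a median of 0.040, with 21 higher and 17 lower.

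Each array showed this shift. As medians of those 72 genes from their mean over 12 arrays, untagged WT arrays stood at -0.046, -0.322 and -0.313 and Y330H at 0.095, 0.378 and 0.272. The groups did not overlap, and WT number 1 and Y330H number 1 were nearest each other. In the Tet arrays the values were -0.179, -0.319 and -0.213 against 0.120, 0.244 and 0.353. Coordinates are left out because the files name no build, and the order of genes is that of the RefSeq table.

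**Figure D4:**
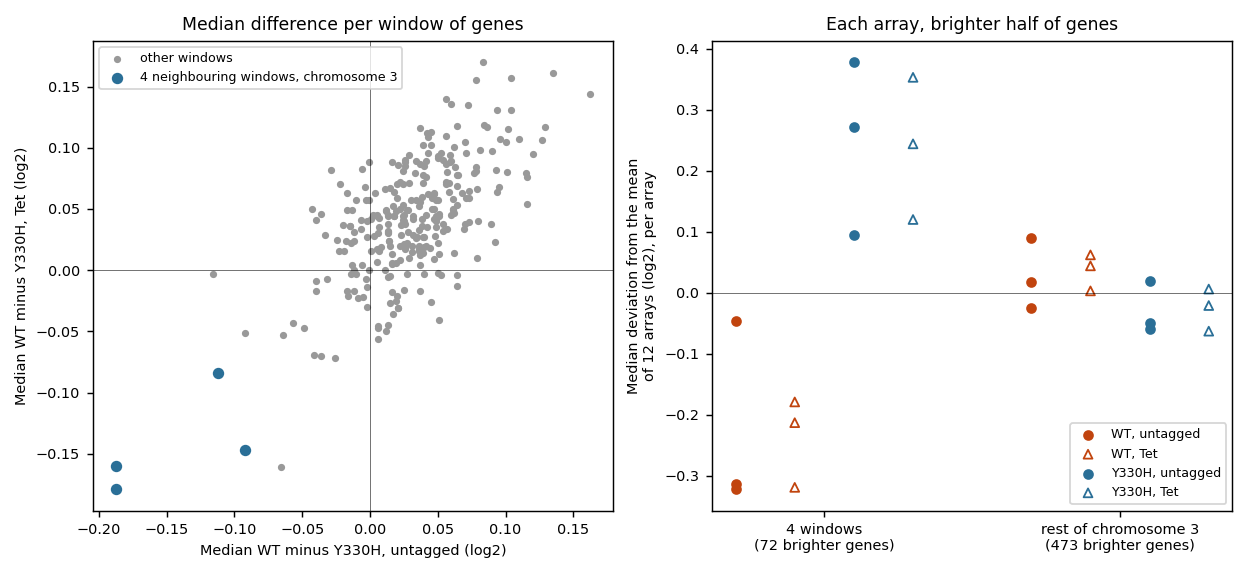
Left, median log2 difference of WT minus Y330H per 10 Mb window in untagged (horizontal) and Tet arrays (vertical), with the 4 windows of distal chromosome 3 in blue. Right, the median deviation of each array from the mean of the 12 HCT15 arrays over the brighter genes of those windows (72) and of the rest of chromosome 3 (473); in the windows every WT array is below every Y330H array.

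The genes called lower in these windows ran from 1.34-fold (TBL1XR1) to 16.8-fold (TM4SF1). SELENOT, a selenoprotein of the endoplasmic reticulum, was 10.83, 10.90 and 10.97 in WT against 11.91, 11.83 and 11.88 (1.96-fold lower, adjusted p = 1.11e-06). The mitochondrial subunit NDUFB5 was 11.39, 11.40 and 11.37 against 12.35, 12.15 and 12.14 (1.77-fold, adjusted p = 2.27e-05), and the ubiquitin ligase part RNF7 was 10.56, 10.48 and 10.46 against 11.26, 11.28 and 11.39 (1.75-fold, adjusted p = 3.18e-05). In these 3 genes, named after their values were seen, the gap between the derivatives was several times the spread within each. By rule the windows' leading genes were TM4SF1, LXN and LRRC34 (above), the cation channel TRPC1 (4.43-fold lower, adjusted p = 2.27e-05), NCEH1 (2.61-fold, 0.0094), VEPH1 (2.22-fold, 0.000587), the mitochondrial elongation factor GFM1 (2.19-fold, 0.00154), the glycosyltransferase B3GALNT1 (2.16-fold, 0.00185), EIF5A2 (1.99-fold, 0.00291), GPR160 (1.96-fold, 0.00156), SEC62 of the protein translocation channel (1.69-fold, 0.00254) and MYNN (1.59-fold, 0.00598). NCEH1 and SEC62 were not called over the 12 HCT15 arrays (0.0577 and 0.0597). The same held for ATP1B3, CP, DHX36, FNDC3B, LOC100289361, MRPL47, PHC3, PLS1, PLSCR1, PRKCI, RARRES1, RSRC1, TBL1XR1 and XRN1 (0.0593 to 0.19). The other genes called lower in these windows kept their call there. Of the leading genes, NCEH1 was also not called without WT number 2 or Y330H number 2 (0.0512 to 0.0593). The 4 genes that went the other way were the purinergic receptor P2RY1 (4.10-fold higher, 0.00162), the collagen-processing PCOLCE2 (3.79-fold, 1.48e-05), the kinase TNIK, a co-activator of Wnt targets (3.47-fold, 5.57e-07), and PLSCR4 (3.47-fold, 0.000286), whose Tet difference of 0.76 was not called (0.0626), nor was that of MYNN (0.0903).

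The difference between derivatives was itself tested between the untagged and the Tet arrays, which is the difference of the 2 responses to tetracycline with its sign turned. In the fit without pairs, 12 genes were called (0.0607% of those tested), with 748 at an unadjusted p under 0.05. With the untagged and Tet array of each number and derivative as a pair, 189 genes were called, the 12 among them. Most of the 12 were not called between the derivatives in the untagged arrays. CPA4 was 5.68, 5.88 and 6.08 in untagged WT against 5.18, 5.83 and 4.76 (difference of 0.63, adjusted p = 0.456). S100A2 was 9.59, 9.46 and 10.02 against 10.41, 9.95 and 9.63 (-0.31, 0.568). GPRC5A was the exception, at 8.51, 6.99 and 9.15 in untagged WT against 10.61, 10.39 and 10.21. Its Tet values were 11.69, 10.93 and 10.74 in WT against 10.72, 10.22 and 10.17, so that the untagged gap of -2.19 ± 0.34 gave way to 0.75 (adjusted p = 0.165), and the change of -2.94 was called (adjusted p = 0.0159; 0.00766 with pairs).

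KRT80, IL18 and TGFBR2, lower in untagged WT, also lost that difference in the Tet arrays (0.06, 0.66 and 0.18, adjusted p = 0.934, 0.0582 and 0.461), and the change was called with pairs (0.000627, 0.00378 and 0.0104) but not without (0.628, 0.059 and 0.343). Other untagged differences grew: with pairs, the change was called for CD44 (1.88 untagged and 3.06 Tet, adjusted p = 0.00703), JUN (0.57 and 1.52, 0.0202), ODAM (-3.24 and -4.90, 0.0166), ALDH3A1 (-1.68 and -2.72, 0.00664), CLDN2 (-2.09 and -3.61, 0.0201), VIL1 (-2.32 and -3.08, 0.023), NHS (2.84 and 4.20, 0.0247), HS3ST3B1 (2.79 and 3.82, 0.0325), APCDD1 (-2.40 and -3.90, 0.0287), HOXD10 (1.88 and 2.5, 0.0371) and ALDH1A3 (1.37 and 2.13, 0.0487). PLSCR4 went the other way (1.80 and 0.76, 0.0487). A change was also called with pairs for CDKN1A (-0.26 and 0.46, 0.0242) and IFITM1 (1.67 and 0.91, 0.0211), which were called in neither set. Without pairs none of these 14 was called (adjusted p of 0.198 to 1).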

How the data were processed

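Per the labels' protocols, RNA was amplified with the NuGEN Ovation Pico system before hybridisation to U133 Plus 2.0 arrays of Affymetrix. The authors' deposited values are RMA signals on the log2 scale, for which the submitters' processing notes name Affymetrix Power Tools; versions are not given in the sources used here. HT115 WT arrays had lower medians (5.548 to 5.606) than HCT15 arrays (6.376 to 6.458), so values were compared only within HCT15. Of 54675 probe sets, 41091 named 1 gene, 1801 several and 11777 none (62 were controls); the brightest per gene over 24 arrays was kept (19775 genes), and 41037 were found in RefSeq. limma 3.58.1 (R 4.3.3) fitted 8 group means to all 24 arrays (16 residual degrees of freedom), with Benjamini-Hochberg adjusted p under 0.05 as a call. In simulated data for the untagged comparison over 19775 genes, 50.7% of 1.5-fold, 86.6% of 2-fold and 98.5% of 4-fold changes were recovered, with 12 false among 169 calls. That simulation drew independent noise with 1 spread per gene across all 24 arrays. Paired arrays, outlying arrays and unequal spread between the lines were not in it, so its rates need not hold for these data. The number of arrays limits precision.

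Members and lists were chosen with earlier results of these data known. Named by rule were the 15 largest non-overlapping differences in each direction called in both sets, the 4 largest called members of each list (the 2 nearest where none was called), the kinase pathway genes of the title with genes known from earlier results, the largest changes between sets, and the leading genes of outlying chromosome windows. List members beyond these (among them CDX2, LGALS4, MYC, HOXB5, HOXB6, MET and genes named with no call) were named after their values were seen. Array numbers paired untagged with Tet arrays of a derivative (correlations of 0.581, 0.488 and 0.416 in WT and 0.767, 0.618 and 0.31 in Y330H) but not the derivatives with each other (0.07, -0.081 and 0.19).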

Additional observations from a re-analysis of the deposited data

Results flagged for a closer look

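In 12 genes the difference between the derivatives itself differed between the untagged and the Tet arrays by the limma test of that change (adjusted p of 0.000323 to 0.0371). The untagged difference minus the Tet difference, on the log2 scale, was -5.04 for the carboxypeptidase CPA4, -3.34 and -3.26 for the keratin-associated proteins KRTAP3-1 and KRTAP4-1, and -2.94 for GPRC5A. It was -2.26 for the calcium-binding S100A2, -1.45 for the actin regulator CORO2B, -1.32 for the chromatin protein HMGA2 and -1.21 for the actin-oxidising MICAL2. The MAP kinase phosphatase DUSP1 had -1.18, the proteoglycan BCAN -1.0, TNFAIP1 -0.87 and the calpain CAPN2 -0.82. In 11 of the 12 the derivatives were called only in the Tet arrays, where WT was higher, and GPRC5A was called only in the untagged arrays, where WT was lower.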

How the results depend on the processing

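The counts of calls moved with several settings. The 1181 untagged calls, 2620 Tet calls, 900 shared calls and 12 genes with a changed difference became 382, 1302, 319 and 1 over only the 12 HCT15 arrays, 411, 1331, 341 and 1 after a second quantile normalisation of those, and 382, 1259, 318 and 1 after median centring. Array weights gave 3728 untagged calls, 1841 shared and 41 changed. Without both WT arrays numbered 1 these were 712, 523 and 2, and without both numbered 3 (an alternative chosen after seeing the data, as are the 2 with pairs) 33 genes changed. Only the 6 untagged arrays gave 170 calls. Leaving out 1 array at a time gave 629 to 1312 untagged, 1473 to 2889 Tet, 500 to 967 shared and 3 to 43 changed, with the lowest shared counts without Y330H number 3 (500), WT number 1 (550) and WT number 2 (582), and the lowest Tet counts without WT Tet number 1 (1473) and Y330H Tet number 3 (1700). The cause was not tested.

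With the replicate number as a block across derivatives, which the data did not bear out as a pairing, 822 untagged, 2191 Tet and 3 changed genes were called over 12 arrays and 140 over the 6. With pairs within a derivative as a random block, 1319, 2790 and 87 were called, and as a fixed block 189 changed.

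No direction reversed for any of the 108 named genes under the alternatives run: of 2662 values, 2252 kept their side of the threshold, 388 lost the call and 22 gained it. Of the 30 leading genes 20 were called in every alternative, and 28 of the 91 named and called genes lost the call when 1 array was left out. List medians moved in 8 of 114 cases.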
